A study of Triticum aestivum with 18 samples.

Results

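The gluten loci of wheat were followed in seeds that had germinated after waterlogging or without it. A locus was counted as a gluten locus where its deposited description named gliadin, glutenin, avenin, secalin, hordein or prolamin and did not name an inhibitor. The rule found 101 of the 94141 loci in the table, and no measured value entered it. By description, 38 loci were alpha- or beta-gliadins, 17 omega-gliadins, 16 gamma-gliadins, 12 low-molecular-weight glutenins, 4 high-molecular-weight glutenins and 11 avenin-like proteins. The remaining 3 were a gamma-hordein-3, an alpha prolamin and the prolamin binding factor, which is a regulator and not a storage protein, and 0 loci were described as secalin.

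Gliadins and glutenins are the storage prolamins of the starchy endosperm. Gliadins are mostly single chains, whereas glutenin subunits are joined by disulfide bonds into the large polymers that give dough its strength. Their genes are transcribed while the grain fills, from promoters that carry the prolamin box, and the proteins are degraded after imbibition by cysteine proteinases and serine carboxypeptidases. In bread wheat the high-molecular-weight glutenin genes lie on the long arms of the homoeologous group 1 chromosomes, the low-molecular-weight glutenin, gamma-gliadin and omega-gliadin genes lie mostly near the tips of their short arms, and the alpha- and beta-gliadin genes lie on the group 6 chromosomes.

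The study compared 3 winter wheat varieties of Triticum aestivum, Zhoumai22 (ZM22), Bainong207 (BN207) and Bainong607 (BN607), which its authors describe as intolerant, intermediate and tolerant to waterlogging. In the waterlogged groups (W72_ZM22, W72_BN207 and W72_BN607) batches of 50 seeds stood for 72 h under 10 cm of water and then germinated in dishes. In the control groups (C72_ZM22, C72_BN207 and C72_BN607) the seeds took up water for 24 h, were not waterlogged, and germinated in the same way. Waterlogged seeds were thus wet for 72 h before germination and control seeds for 24 h. Waterlogging and time since first wetting therefore cannot be told apart in these groups. Seeds of all 6 groups were sampled after 72 h of germination with the radicle and the coleoptile removed, so each of the 18 libraries (3 per group) holds RNA of endosperm, aleurone, seed coat and the rest of the embryo. The study calls the libraries of a group biological replicates, and no source used here ties a library to a seed lot, so a p-value measures the spread between these libraries.

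Summed counts ranged from 68754539 to 107712576 per library. In the library labelled W72_BN207 replicate 1, 0 of the 225 transcripts that were on in BN207 and off in BN607 were detected, whereas all 251 that were on in BN607 and off in BN207 were. In the remaining 17 libraries 75.2 to 99.7% of such transcripts were detected for the variety on the label, and at most 1.71% for another variety. The library therefore goes against its label, and the main medians and some of the counts that use it are given with and without it. Other results that use it are given with it only, among them the unadjusted and DESeq2 counts and the calls of partner genes. Levels below are FPKM, fragments per kilobase of exon scaled to the mapped reads of the library. Gluten genes are near-identical copies, so reads may be divided among members by the counting, and in whole seeds fewer endosperm cells and less RNA per cell cannot be told apart.

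Gluten RNA was concentrated in very few libraries. The summed level of the 101 loci in C72_ZM22 was 544, 8.54 and 5.30 FPKM in replicates 1, 2 and 3, and in W72_ZM22 it was 1.27, 1.23 and 10.4 FPKM. In C72_BN207 it was 144, 15.6 and 49.1 FPKM, and in W72_BN207 it was 21.2, 17.7 and 4.21 FPKM, the first of these being the library that goes against its label. For BN607 the sums were 15.3, 8.28 and 3.65 FPKM in the control libraries and 16.0, 1.15 and 13.0 FPKM in the waterlogged ones. Only C72_ZM22 replicate 1 and C72_BN207 replicate 1 were above 100 FPKM, and in ZM22 and BN207 the ranges of the control and waterlogged groups overlapped.

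**Figure D1:**
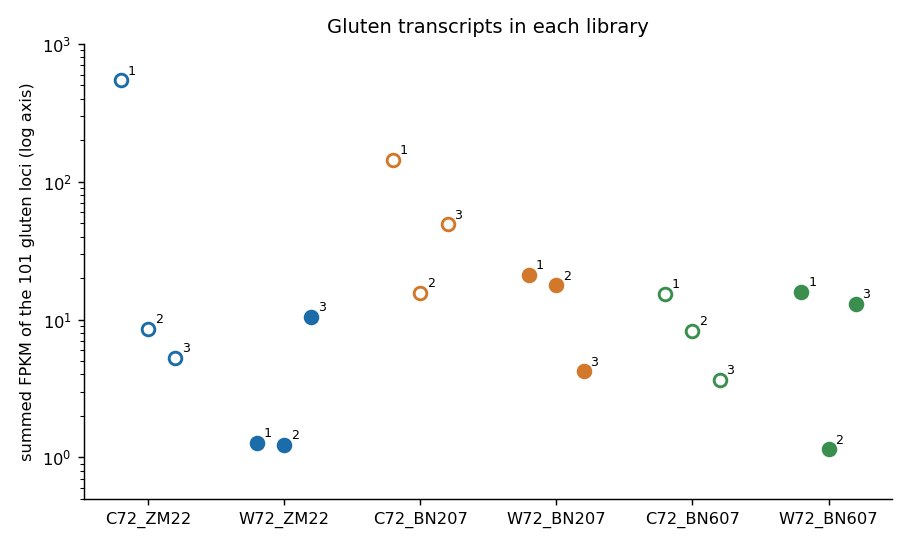
Summed FPKM of the 101 gluten loci (log axis) in each library, by group, with open circles for control, filled circles for waterlogged seeds and the replicate number beside each point. C72_ZM22 replicate 1 stands at 544 FPKM and C72_BN207 replicate 1 at 144 FPKM, while the other 16 libraries lie between 1.15 and 49.1 FPKM.

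C72_ZM22 replicate 1 alone held 61.8% of all gluten FPKM in the 18 libraries, C72_BN207 replicate 1 held 16.3% and C72_BN207 replicate 3 held 5.59%. At least 1 FPKM was reached by 49, 40 and 19 gluten loci in these 3 libraries and by 0 to 6 loci in each of the others. At least 10 FPKM was reached by 23 loci in C72_ZM22 replicate 1 and by 0 in every other library. Of the 94 loci above 0 anywhere, 65 had their highest value in C72_ZM22 replicate 1, where 5.48% of all detected loci did, and 18 in C72_BN207 replicate 1, where 3.82% did.

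As group means, the summed level was 186 ± 310 FPKM (SD, n = 3) in C72_ZM22 and 4.31 ± 5.30 FPKM in W72_ZM22. It was 69.5 ± 66.5 FPKM in C72_BN207 and 14.4 ± 8.97 FPKM in W72_BN207 (11.0 FPKM over the other 2 libraries without the one labelled replicate 1), and it was 9.08 ± 5.87 FPKM in C72_BN607 and 10.0 ± 7.84 FPKM in W72_BN607. With the FPKM of all loci scaled to a sum of 1000000 in each library, the waterlogged mean minus the control mean was −300 in ZM22 and −4.56 without C72_ZM22 replicate 1. In BN207 this difference was −90.3, −26.3 without C72_BN207 replicate 1 and −95.4 without the library labelled W72_BN207 replicate 1, and in BN607 it was 2.59, with −2.93 without W72_BN607 replicate 1 and 10.1 without W72_BN607 replicate 2. With all libraries the size of each difference was below the SD of its control group, 512, 114 and 9.12 on the same scale, and no test was made of the sums.

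A list of other grain transcripts was highest in the same library as gluten, but the order of the other libraries differed. The list was chosen as starchy endosperm markers beside gluten (puroindolines, grain softness protein, granule-bound starch synthase, Globulin-1 and triticin). It held 13 loci, 9 of them tested, and summed to 643 FPKM in C72_ZM22 replicate 1, its highest library. Next came 487 FPKM in W72_ZM22 replicate 1, 300 FPKM in C72_ZM22 replicate 2 and 249 FPKM in C72_BN207 replicate 1. The gluten loci summed to only 1.27 and 8.54 FPKM in these W72_ZM22 and C72_ZM22 libraries, and C72_BN207 replicate 3, with 49.1 FPKM of gluten, had 22.5 FPKM of the list. Over all libraries the list ranged from 8.13 to 643 FPKM. The Globulin-1 loci MSTRG.22929 and MSTRG.24880 held 203 and 237 FPKM of it in C72_ZM22 replicate 1. They held 287 and 129 FPKM of it in W72_ZM22 replicate 1. In those libraries the list was therefore mostly Globulin-1, and whether Globulin-1 marks starchy endosperm here was not tested. Puroindoline-B (MSTRG.25303), a lipid-binding protein that sets kernel texture, was at 31.4 FPKM in C72_ZM22 replicate 1, at 8.57 FPKM in C72_BN207 replicate 1 and at no more than 3.22 FPKM elsewhere. The more abundant puroindoline-A (MSTRG.25302) did not follow gluten in this way. It was highest in W72_BN607 replicate 1, at 140 FPKM, against 60.3 FPKM in C72_ZM22 replicate 1 and 20.7 FPKM in C72_BN207 replicate 1. Histones, which mark dividing tissue (248 loci, 222 tested), summed to 827 FPKM in C72_ZM22 replicate 1, their lowest library, and to 964 FPKM in C72_BN207 replicate 1, in a range up to 20921 FPKM. W72_ZM22 replicate 1 was also low for histones, at 1303 FPKM, while its gluten loci summed to 1.27 FPKM. The part of these differences in the gluten levels was not tested.

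The families differed in where their members were highest. Of the 38 alpha- and beta-gliadins, 33 were highest in C72_ZM22 replicate 1, as were 10 of 16 gamma-gliadins, all 4 high-molecular-weight glutenins, 6 of 12 low-molecular-weight glutenins, 6 of 11 avenin-like loci and 4 of 17 omega-gliadins. In that library alpha- and beta-gliadins made up 51.0% of the gluten FPKM, gamma-gliadins 22.04%, low-molecular-weight glutenins 11.9%, avenin-like proteins 8.43%, high-molecular-weight glutenins 2.49% and omega-gliadins 1.74%. In C72_BN207 replicate 1 the same families took 39.6%, 28.5%, 16.1%, 8.07%, 2.43% and 2.19%.

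The most abundant gliadin by its mean over libraries was MSTRG.3396, a gamma-gliadin of chromosome 1D (chr1D:321910-322893, IWGSC RefSeq v1.0, minus strand, TraesCS1D02G001200). Its level was 35.0, 0.653 and 0.180 FPKM in C72_ZM22 and 0.0475, 0.00836 and 0.113 FPKM in W72_ZM22. In BN207 it was 9.40, 0.543 and 3.08 FPKM in control and 0.343, 0.317 and 0.221 FPKM in waterlogged seeds. The BN607 values were 0.664, 0.391 and 0.179 FPKM in control and 0.420, 0.0252 and 0.0508 FPKM in waterlogged seeds. All waterlogged libraries of ZM22 and of BN207 lay below all control libraries of the same variety, and in BN607 the groups overlapped.

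MSTRG.27399, an alpha-gliadin of chromosome 6A (chr6A:25107550-25108401, TraesCS6A02G049100), had the highest single value of any gluten locus. It was at 35.7, 0.244 and 0.237 FPKM in C72_ZM22 against 0.102, 0 and 0 FPKM in W72_ZM22, and at 3.26, 0.220 and 2.04 FPKM in C72_BN207 against 0.0385, 0.0246 and 0.0428 FPKM in W72_BN207. BN607 libraries held 0.285, 0.304 and 0.0374 FPKM in control and 0.172, 0 and 0 FPKM in waterlogged seeds. Again the ZM22 and BN207 groups did not overlap, and those of BN607 did.

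Among the glutenins, MSTRG.3390 (chr1D:84681-100617, a low-molecular-weight subunit assembled over TraesCS1D02G000200 and TraesCS1D02G000300) led. Its values were 26.2, 0.273 and 0.215 FPKM in C72_ZM22 and 0.0235, 0.00519 and 0.193 FPKM in W72_ZM22. They were 7.71, 0.551 and 2.51 FPKM in C72_BN207 and 0.437, 0.473 and 0.167 FPKM in W72_BN207, and no BN607 library exceeded 0.402 FPKM. The groups were apart in ZM22 and BN207, by 0.215 against 0.193 FPKM at the nearest point in ZM22. Low-molecular-weight subunits join the glutenin polymer through disulfide bonds.

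The highest high-molecular-weight glutenin, TraesCS1D02G317211 (chr1D:412160786-412163311, described as a partial subunit), was at 3.67, 0.0544 and 0.0339 FPKM in C72_ZM22 and at 0, 0 and 0.499 FPKM in W72_ZM22. In BN207 it was at 0.923, 0.0623 and 0.473 FPKM in control and at 0.477, 0.334 and 0.0976 FPKM in waterlogged seeds. In BN607 it was at 0.154, 0.00701 and 0.0421 FPKM in control and at 0.613, 0.00732 and 0.686 FPKM in waterlogged seeds, so its groups overlapped in all varieties. The highest omega-gliadin, MSTRG.3398 (chr1D:492093-493185), reached 5.95 FPKM in C72_ZM22 replicate 1 and 1.46 FPKM in W72_BN207 replicate 2. The gamma-hordein-3 locus TraesCS7A02G035600 reached 1.45 FPKM and the alpha prolamin MSTRG.37044 reached 11.1 FPKM, both in C72_ZM22 replicate 1.

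Of the 15 loci with the highest mean level, 14 were highest in C72_ZM22 replicate 1, the exception being avenin-like a4. In C72_ZM22 replicate 1 and C72_BN207 replicate 1 the alpha-gliadins MSTRG.27404, MSTRG.37088, MSTRG.37274 and MSTRG.36854 were at 33.4 and 1.54, 18.4 and 4.07, 14.7 and 4.96, and 13.1 and 4.13 FPKM. The gamma-gliadins MSTRG.3395, MSTRG.72 and MSTRG.71 were at 25.5 and 2.92, 19.9 and 4.32, and 19.8 and 2.52 FPKM. The low-molecular-weight glutenin MSTRG.3438 was at 18.8 and 2.37 FPKM, and the gliadin/avenin-like MSTRG.3392 at 15.3 and 4.44 FPKM. All 9 of these loci were higher in the ZM22 library than in the BN207 library, by differing ratios.

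**Figure D2:**
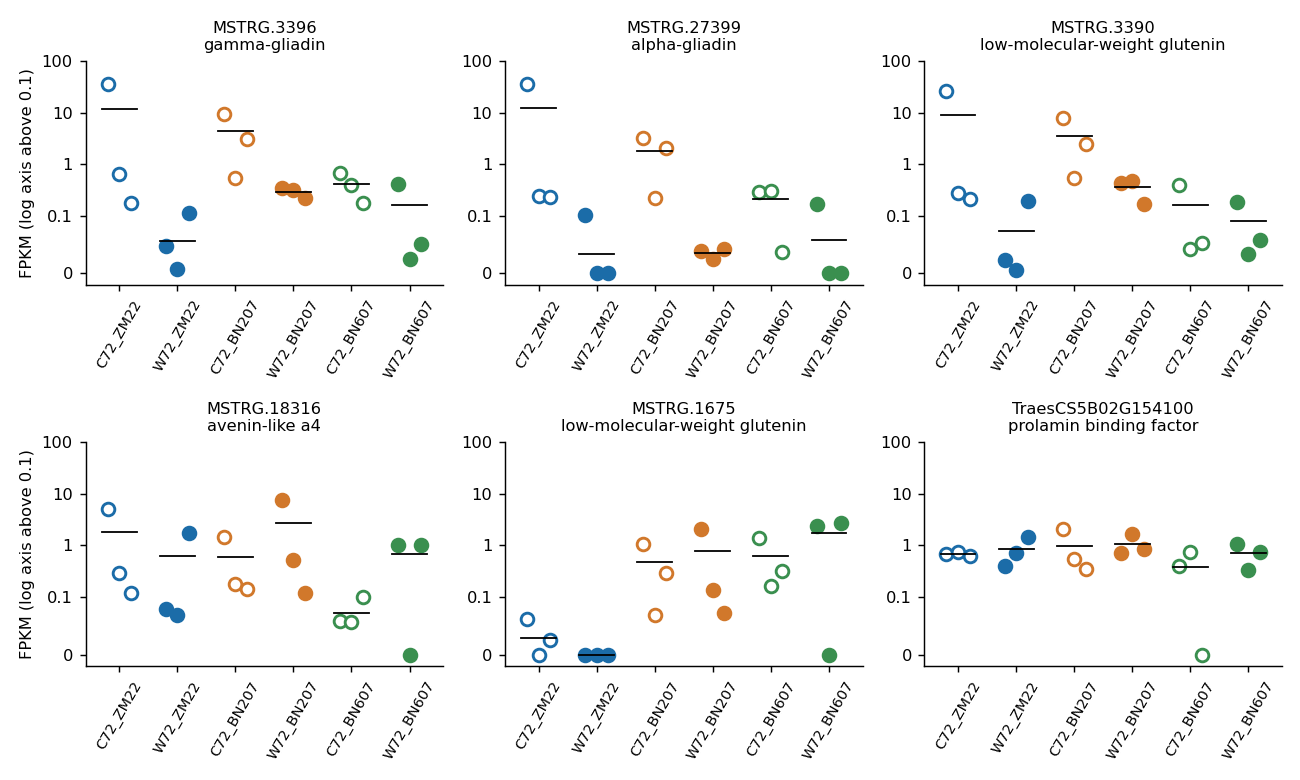
FPKM (linear below 0.1, log above) of 6 gluten loci in each library, by group, with open circles for control, filled circles for waterlogged seeds and a line at each group mean. The upper 3 loci are highest in C72_ZM22 replicate 1, at 35.0, 35.7 and 26.2 FPKM, whereas avenin-like a4 (MSTRG.18316) is highest at 7.59 FPKM in the library labelled W72_BN207 replicate 1 and MSTRG.1675 is at or near 0 in all ZM22 libraries.

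To compare waterlogged with control seeds, which also differed in time since first wetting, the counts of all libraries were fitted with edgeR's quasi-likelihood test. The fit covered the 50656 loci that reached 1 FPKM in 3 or more libraries, with Benjamini-Hochberg adjustment over all of them. Of the 101 gluten loci 20 passed this filter and 81 did not: 42 reached 1 FPKM in only 1 or 2 libraries, 39 never did, and 7 of these were at 0 throughout. Of the 20 that passed, 14 did so through control libraries alone, 12 of them through C72_ZM22 replicate 1, C72_BN207 replicate 1 and C72_BN207 replicate 3 only. Such loci had to lie above the waterlogged groups, so counts over the 20 are given as a description.

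In ZM22 no gluten locus passed the test, at adjusted p under 0.05, where 0.00592% of all tested loci did. At unadjusted p under 0.05 there were 14 of 20, against 1.09% of all tested loci, and DESeq2 on the same counts called 9, against 0.286% of the loci it tested. The largest decreases in the fit were those of 2 alpha-gliadins. MSTRG.36849 (chrUn:94280585-94281460) was at 20.3, 0.436 and 0.272 FPKM in C72_ZM22 and at 0 FPKM in all 3 libraries of W72_ZM22, and MSTRG.28802 (chr6B:43560471-43572752) was at 14.1, 0.184 and 0.111 FPKM against 0 in all 3. Because the waterlogged libraries held no counts, their fitted log2 fold changes of −12.58 (SE 2.66) and −13.24 (SE 3.14) depend on the prior count, and the adjusted p of both was 1 with edgeR's quasi-likelihood test. With DESeq2 MSTRG.28802 passed, at adjusted p = 6.99e-07.

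Over the 20 tested members the median log2 fold change in ZM22 was −7.46, against −0.02 over all tested loci, and it was −2.21 without C72_ZM22 replicate 1. A count without the level filter gives the same direction: among the 94 loci above 0 in any library, all waterlogged libraries lay below all control libraries for 27 and above them for 0, where 1.61% and 1.67% of all loci above 0 did so. For the 20 tested members the count below was 10, against 1.57% of tested loci. It was also 10 without C72_ZM22 replicate 1, against 3.59%, but such a count cannot fall when a library is left out. The 2 remaining control libraries, at 8.54 and 5.30 FPKM of summed gluten, were below W72_ZM22 replicate 3 at 10.4 FPKM, in which 4 loci reached at least 1 FPKM: avenin-like a3 and a4, the low-molecular-weight glutenin MSTRG.78 and the prolamin binding factor.

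In BN207, too, no gluten locus passed edgeR's quasi-likelihood test, where 0% of all tested loci did, and with DESeq2 the count was 0 as well, against 0.544%. At unadjusted p under 0.05 there were 9 of 20, against 1.89%. The smallest p-values were those of MSTRG.28802, at 2.94, 0.211 and 1.03 FPKM in C72_BN207 and 0.0237, 0.00322 and 0.0204 FPKM in W72_BN207, and of the alpha/beta-gliadin MSTRG.36952 (chrUn:181033106-181049714), at 1.74, 0.116 and 1.15 FPKM against 0.0261, 0.0241 and 0.0155 FPKM. In both loci the waterlogged libraries were below the control libraries without overlap. Their log2 fold changes were −6.11 (SE 2.14) and −5.20 (SE 2.02), with adjusted p = 1 in edgeR's quasi-likelihood test.

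The median of the 20 tested members in BN207 was −3.92 against −0.05 over all tested loci, and it was −2.34 without C72_BN207 replicate 1 and −3.97 without the library labelled W72_BN207 replicate 1. Among the 94 loci above 0 in any library the waterlogged libraries lay below the control libraries for 35 and above for 1, against 2.2% and 1.4% of all loci above 0. Among the 20 tested it was 12 below, against 1.95%. Such counts cannot fall when a library is left out, but the share over all tested loci rises. Without the library labelled W72_BN207 replicate 1 there were 12 of the 20, against 9.78%. Without C72_BN207 replicate 1 there were also 12, against 22.9%.

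BN607 differed in its values. No gluten locus passed edgeR's quasi-likelihood test, where 0% of all tested loci did, nor with DESeq2, against 0.0675%, and at unadjusted p under 0.05 there was 1 of 20, against 2.12%. That locus was MSTRG.36849, at 1.28, 2.65 and 1.17 FPKM in C72_BN607 and 0.0531, 0.0422 and 0.132 FPKM in W72_BN607, and the groups did not overlap. Its log2 fold change was −4.19 (SE 1.69), followed by MSTRG.37274 at −4.11 (SE 2.12), both with adjusted p = 1 in edgeR's quasi-likelihood test. The median over the 20 was −0.44 against 0.10 over all tested loci, with 12 below 0 and 8 above, and it turned to 1.37 without C72_BN607 replicate 1. Among the 94 loci above 0 in any library 5 lay below control without overlap and 1 above, against 6.78% and 1.31% of all loci above 0, so the share below was near the background.

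**Figure D3:**
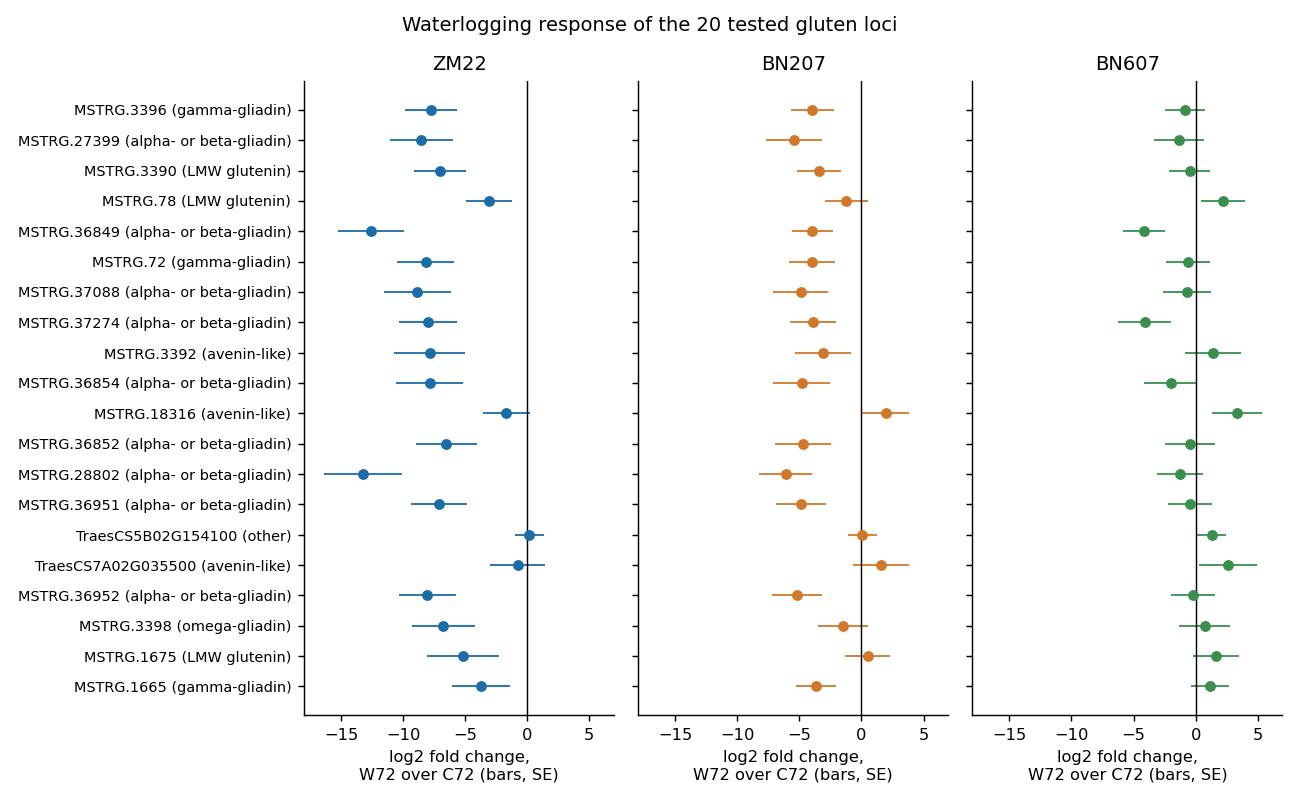
Fitted log2 fold change of waterlogged over control seeds for the 20 tested gluten loci in each variety (points) with its standard error (bars). Most points lie left of 0 in ZM22 and BN207 and scatter around 0 in BN607, and none passed the adjusted threshold; most of these loci passed the level filter through control libraries only.

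Averaged over the varieties, MSTRG.36849 had a log2 fold change of −6.91 (SE 1.19) and an adjusted p of 0.785 in edgeR's quasi-likelihood test, and MSTRG.28802 had −6.87 (SE 1.40). No gluten locus passed, where 0.00197% of tested loci did. There were 13 at unadjusted p under 0.05, against 2.72%, and DESeq2 called 10, against 0.433%. The difference in response between varieties was tested directly as well. No gluten locus passed edgeR's quasi-likelihood test for BN207 minus ZM22, BN607 minus ZM22 or BN607 minus BN207, where 0.00395%, 0.00395% and 0% of tested loci did, and at unadjusted p under 0.05 there were 1, 11 and 1 of 20, against 1.49%, 1.37% and 1.36%. With DESeq2 there were 0, 1 and 0, against 0.461%, 0.216% and 0.324%, the 1 being MSTRG.28802 in BN607 minus ZM22. Contrasts that share ZM22 or BN207 share its control libraries, and without C72_ZM22 replicate 1 the median for BN207 minus ZM22 went from 3.65 to −1.46 and that for BN607 minus ZM22 from 6.77 to 1.32. Without the library labelled W72_BN207 replicate 1 the median for BN207 minus ZM22 was 3.06, and that for BN607 minus BN207 went from 3.24 to 3.64, with no gluten locus called.

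Avenin-like proteins are small cysteine-rich relatives of the gliadins. Most of the avenin-like loci above 0 (6 of 8) were highest in C72_ZM22 replicate 1, but avenin-like a4 and a3 and the glutenin MSTRG.78 also reached 1 FPKM in several waterlogged libraries. Avenin-like a4 (MSTRG.18316, chr4A:717960030-717960545) was at 5.01, 0.290 and 0.118 FPKM in C72_ZM22 and at 0.0789, 0.0680 and 1.75 FPKM in W72_ZM22. It was at 1.45, 0.180 and 0.141 FPKM in C72_BN207, and at 7.59, 0.513 and 0.118 FPKM in the libraries labelled W72_BN207. In BN607 it was at 0.0579, 0.0572 and 0.102 FPKM in control and at 1.04, 0 and 1.02 FPKM in waterlogged seeds, so that 1 waterlogged library fell below the control range and 2 lay above it.

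Avenin-like a3 (TraesCS7A02G035500, chr7A:15697493-15698020) was highest in C72_ZM22 replicate 1 at 3.26 FPKM, and at least 1 FPKM was also found in W72_ZM22 replicate 3 (2.29), the library labelled W72_BN207 replicate 1 (2.67), W72_BN207 replicate 2 (1.01) and W72_BN607 replicates 1 and 3 (1.48 and 1.22). The low-molecular-weight glutenin MSTRG.78 (chr1A:4202212-4203588) was at 18.5, 0.156 and 0.551 FPKM in C72_ZM22 against 0.260, 0 and 2.28 FPKM in W72_ZM22, and at 4.91, 1.59 and 1.84 FPKM in C72_BN207 against 1.33, 2.19 and 0.308 FPKM in W72_BN207. In BN607 it was at 0.692, 0.133 and 0.285 FPKM in control and at 2.07, 0.151 and 2.17 FPKM in waterlogged seeds. In W72_ZM22 replicate 3, W72_BN607 replicates 1 and 3 and the library labelled W72_BN207 replicate 1, avenin-like loci took 40.2%, 19.5%, 17.3% and 50.8% of the gluten FPKM, against 0 to 12.8% in each of the other libraries.

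The log2 fold change of avenin-like a4 was −1.69 (SE 1.88) in ZM22, 1.96 (SE 1.89) in BN207 and 3.33 (SE 2.04) in BN607, and that of MSTRG.78 was −3.09 (SE 1.83), −1.21 (SE 1.71) and 2.23 (SE 1.78). None passed the adjusted threshold of edgeR's quasi-likelihood test, and the control and waterlogged groups overlapped in all varieties. Puroindoline-A (MSTRG.25302) was at 52.1, 140, 63.2 and 72.2 FPKM in the same 4 libraries, and at 60.3 and 60.6 FPKM in C72_ZM22 replicate 1 and W72_ZM22 replicate 1, while puroindoline-B was at 0.706, 3.12, 1.72 and 3.22 FPKM in those 4. Whether puroindoline-A and the avenin-like loci share a source was not tested.

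Varieties differed at the start of chromosome 1B. Here 18 gluten loci stand together between 4965664 and 6437481 (gamma- and omega-gliadins, low-molecular-weight glutenins and an avenin-like locus). Of these, 12 were at 0 FPKM in all 6 ZM22 libraries, of which 9 were above 0 in another variety and 3 were at 0 everywhere, and the highest ZM22 value of any of the 18 was 0.309 FPKM. In BN207 15 loci of the cluster were above 0 and in BN607 14 were.

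The cluster summed to 0.546, 0 and 0.0909 FPKM in C72_ZM22 and to 0 in all of W72_ZM22. In BN207 it summed to 27.6, 2.39 and 7.33 FPKM in control and to 3.41, 2.19 and 0.811 FPKM in waterlogged seeds, and in BN607 to 3.46, 1.57 and 0.557 FPKM in control and to 4.12, 0 and 4.29 FPKM in waterlogged seeds. Each ZM22 library was therefore below each library of BN207 and BN607 except W72_BN607 replicate 2, at 0. As a share of the gluten FPKM of its own library, the cluster took 0 to 1.71% in ZM22 and 12.4 to 33.0% in BN207 and BN607, apart from that same library.

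The richest libraries show the contrast at the highest depth of gluten reads. The cluster had 55 counts in C72_ZM22 replicate 1 and 2735 in C72_BN207 replicate 1. Outside the cluster, 65 of 73 loci with more than 3 counts in either library were higher in C72_ZM22 replicate 1, with a median ratio of 4.70 and a range of 2.75 to 21.7 over the 28 loci at 1 FPKM or more in both. Inside it, 1 of 13 was higher in the ZM22 library. The corresponding first 10 Mb of 1A (11 gluten loci) and 1D (13 loci) summed to 69.9 and 148 FPKM in C72_ZM22 replicate 1 and to 13.3 and 33.3 FPKM in C72_BN207 replicate 1. The high-molecular-weight glutenin of 1B far from the cluster, TraesCS1B02G329992 (chr1B:555933489-555935716), was at 2.94 and 0.865 FPKM in the same libraries, so that the low level in ZM22 did not extend to it.

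**Figure D4:**
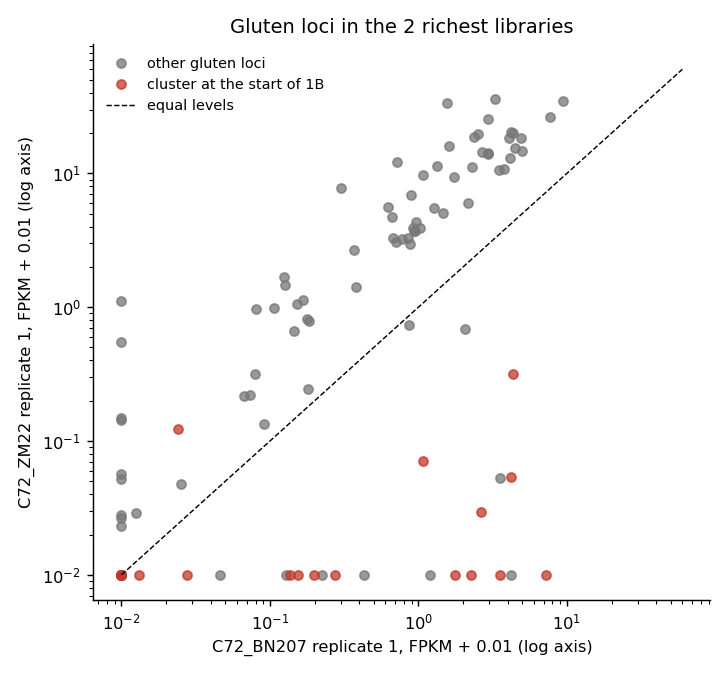
FPKM + 0.01 of each gluten locus in C72_ZM22 replicate 1 (vertical, log axis) against C72_BN207 replicate 1 (horizontal, log axis), with the 18 loci of the 1B cluster in red, the other loci in grey and a dashed line of equal levels. Most grey points lie above the line, by a median ratio of 4.70, whereas 12 of the 13 compared loci of the cluster lie below it.

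Averaged over treatments, 1 tested gluten locus was higher in BN207 than in ZM22 by edgeR's quasi-likelihood test, where 4.63% of all tested loci passed and 2.42% were higher. There were 2 of 20 at unadjusted p under 0.05, against 16.8%, and DESeq2 called 2, against 10.4%, so the share called in either direction was near or below the background. The locus was MSTRG.1665 (chr1B:5142047-5142922, described as gamma-gliadin B). Its level was 0.0436, 0 and 0 FPKM in C72_ZM22 and 0 in all of W72_ZM22. It was 4.17, 1.26 and 1.00 FPKM in C72_BN207 and 0.126, 0.313 and 0.0826 FPKM in W72_BN207, and in BN607 it was 0.154, 0.345 and 0.0275 FPKM in control and 0.298, 0 and 0.754 FPKM in waterlogged seeds. All 6 BN207 libraries were above all 6 ZM22 libraries, and its log2 fold change was 7.06 (SE 1.51, adjusted p = 0.0190 by edgeR's quasi-likelihood test), or 7.16 with adjusted p = 0.0235 without the library labelled W72_BN207 replicate 1. The call was lost without C72_ZM22 replicate 2, at adjusted p = 0.0558, and with control libraries only, at 0.134.

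Between BN607 and ZM22, 2 gluten loci passed edgeR's quasi-likelihood test, both higher in BN607, where 10.6% of all tested loci passed and 3.84% were higher. There were 3 of 20 at unadjusted p under 0.05, against 27.7%, and DESeq2 called 3, against 20.1%. These shares over both directions were also near or below the background. The low-molecular-weight glutenin MSTRG.1675 (chr1B:5584161-5585477) was at 0.0612, 0 and 0.0260 FPKM in C72_ZM22 and at 0 in all of W72_ZM22, and in BN607 it was at 1.41, 0.164 and 0.317 FPKM in control and 2.43, 0 and 2.71 FPKM in waterlogged seeds. In BN207 it was at 1.07, 0.0693 and 0.292 FPKM in control and 2.10, 0.139 and 0.0729 FPKM in waterlogged seeds. In 5 of 6 BN607 libraries it was above every ZM22 library. The log2 fold change over ZM22 was 7.50 (SE 1.86) with adjusted p = 0.0240 in BN607, and 6.87 (SE 1.83) with adjusted p = 0.0541 in BN207, both by edgeR's quasi-likelihood test.

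For MSTRG.1665 in BN607 the log2 fold change over ZM22 was 5.47 (SE 1.46), with adjusted p = 0.0329 by edgeR's quasi-likelihood test. Both calls in BN607 were close to the threshold. That of MSTRG.1665 was lost in 9 of 20 alternative settings and that of MSTRG.1675 in 5 of 20, among them limma on log2(FPKM + 1), at adjusted p = 0.319 and 0.0975, and the control libraries only, at 0.362 and 0.324. Where counts in ZM22 are near 0, the size of a fitted fold change depends on the prior count, and only its direction and call are read here.

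Most of the cluster failed the level filter, so a filter of at least 10 counts in 3 libraries, which 67 gluten loci passed, shows it more fully. Under it edgeR's quasi-likelihood test called 6 of the 67 (8.96%) for BN207 minus ZM22, against 3.52% of tested loci, all higher in BN207. They were MSTRG.1663, MSTRG.1664, MSTRG.1665, MSTRG.1674 and TraesCS1B02G011700 of the 1B cluster and the alpha-gliadin MSTRG.36982 of unplaced sequence. For BN607 minus ZM22 it called 7 of 67 (10.4%), against 8.11%. Those higher in BN607 were MSTRG.1663, MSTRG.1664, MSTRG.1665, MSTRG.1675 and TraesCS1B02G011700, and those lower were the 6A alpha-gliadin MSTRG.27400 and the 1A high-molecular-weight glutenin TraesCS1A02G317311. These last 2 had 0 to 2 counts in each BN607 library and 1096 of 1141 and 737 of 796 ZM22 counts in C72_ZM22 replicate 1, so no fold is given. The calls depended on single libraries. For BN207 minus ZM22 there were 3 without C72_ZM22 replicate 1 (2 of them among the 6), or 4.48% against 2.25% of tested loci. Without C72_BN207 replicate 1 there were 3, or 4.48% against 4.03%, near the background. Without the library labelled W72_BN207 replicate 1 there were 5 (4 among the 6), or 7.46% against 3.74%. For BN607 minus ZM22 there was 1, MSTRG.1665, without C72_ZM22 replicate 1, or 1.49% against 4.92%, below the background.

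The highest locus of the cluster, the gamma-gliadin MSTRG.1664 (chr1B:5099315-5100366), was at 0, 0 and 0.0272 FPKM in C72_ZM22 and 0 in W72_ZM22. In BN207 it was at 7.18, 0.409 and 2.62 FPKM in control and at 0.553, 0.365 and 0.0287 FPKM in waterlogged seeds. BN607 values were 0.587, 0.328 and 0.0839 FPKM in control and 0.329, 0 and 0.245 FPKM in waterlogged seeds. By FPKM no BN207 library overlapped ZM22, and 1 BN607 library did. At the nearest point W72_BN207 replicate 3 and C72_ZM22 replicate 3 held 4 counts each, so the separation there is not one of counts.

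Against a floor of 3 counts per library, BN207 was at least 30.8-fold higher than ZM22 for MSTRG.36982, at least 25.9-fold for the low-molecular-weight glutenin MSTRG.1674, at least 23.6-fold for the low-molecular-weight glutenin MSTRG.1677, at least 14.7-fold for the gamma-gliadin MSTRG.1663, at least 10.2-fold for the 6A alpha/beta-gliadin MSTRG.27398 and at least 8.85-fold for the 1B avenin-3 MSTRG.1666. Without C72_BN207 replicate 1, which held most of the counts, these bounds were 12.9, 13.1, 4.65, 4.78, 4.95 and 3.76, and without the library labelled W72_BN207 replicate 1 they were 36.4, 31.1, 28.0, 17.2, 12.2 and 10.6. They are bounds on means of counts and cover no spread between libraries. MSTRG.1674 was at 2.63, 0.118 and 0.721 FPKM in C72_BN207 and at 0, 0.819 and 0.264 FPKM in W72_BN207, and it stayed at or under 0.0195 FPKM in ZM22 and BN607. Its only 0 in BN207 was in the library that goes against its label, and BN207 was at least 26.9-fold above BN607, or 13.7-fold without C72_BN207 replicate 1.

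Low levels in ZM22 at this place were not limited to gluten. Of the loci at 0.5 FPKM or more in all BN207 and BN607 libraries, 57 of 365 in the first 200 Mb of 1B were under 0.1 FPKM in all ZM22 libraries (15.6%), against 2 of 1125 in the rest of 1B (0.178%), 0 of 1447 on 1A, 17 of 1525 on 1D (1.11%), 16 of them among the 86 between 480 and 520 Mb (18.6%), and 149 of 33792 in the whole table (0.441%). The boundary was chosen after the values were seen, and no test is attached to it. Among the loci there described as proteinases or carboxypeptidases, Serine carboxypeptidase 2 (TraesCS1B02G104500) was higher than in ZM22 by 5.93 (SE 0.96, adjusted p = 0.00179) in BN207 and by 5.53 (SE 0.95, adjusted p = 0.00206) in BN607 on the log2 scale, by edgeR's quasi-likelihood test. Its mean was 0.00912 and 0.0190 FPKM in C72_ZM22 and W72_ZM22, 0.548 and 1.16 FPKM in C72_BN207 and W72_BN207, and 1.35 and 0.431 FPKM in C72_BN607 and W72_BN607. Its levels were thus low throughout, and a part in gluten breakdown was not tested.

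The high-molecular-weight glutenin TraesCS1A02G317311 (chr1A:508723999-508726319) had a different distribution. It was at 3.22, 0.0625 and 0.00737 FPKM in C72_ZM22 and at 0, 0 and 0.189 FPKM in W72_ZM22. It was at 0.771, 0.0124 and 0.345 FPKM in C72_BN207 and at 0.0436, 0.0997 and 0.0136 FPKM in W72_BN207, and at 0 in all 6 BN607 libraries. The groups of ZM22 and BN607 shared only the value 0. High-molecular-weight subunits form the backbone of the glutenin polymer.

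The 9 gluten loci of 6A took 20.6%, 12.3% and 13.1% of the gluten FPKM in C72_ZM22, against 6.50%, 5.03% and 9.18% in C72_BN207 and 3.98%, 7.21% and 3.08% in C72_BN607. In W72_ZM22 the share was 9.84%, 2.27% and 1.36%, and it was 0.328 to 3.42% in the waterlogged libraries of the other varieties. MSTRG.27404 (chr6A:25581178-25582017), MSTRG.27400 (chr6A:25203493-25204413) and MSTRG.27402 (chr6A:25472841-25473704) were at 33.4, 12.1 and 7.76 FPKM in C72_ZM22 replicate 1 and at 1.54, 0.704 and 0.292 FPKM in C72_BN207 replicate 1. By contrast their neighbour MSTRG.27398 (chr6A:24921651-24922607) was at 0 in all ZM22 libraries and at 1.19, 0.0902 and 0.7001 FPKM in C72_BN207. No test was made of these shares.

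Between BN607 and BN207 no gluten locus passed edgeR's quasi-likelihood test, where 1.52% of tested loci did. There were 4 of 20 at unadjusted p under 0.05, against 9.53%, and DESeq2 called 1, MSTRG.3390, against 4.69%. The smallest p-values were those of the alpha-gliadin MSTRG.37274, with a log2 fold change of −3.71 (SE 1.40), and of MSTRG.3390, with −3.31 (SE 1.25), at adjusted p = 0.321 and 0.325 by edgeR's quasi-likelihood test. Of the 20 tested members 19 were lower in BN607, with a median of −1.63, against 0.01 over all tested loci. The median was −1.55 without the library labelled W72_BN207 replicate 1, −1.02 without C72_BN207 replicate 1 and −2.69 without W72_BN607 replicate 1.

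The genes that act on gluten were not silent. The prolamin binding factor TraesCS5B02G154100 (chr5B:283623197-283625483), a DOF transcription factor that binds the prolamin box, was at 0.683, 0.761 and 0.635 FPKM in C72_ZM22 and at 0.405, 0.725 and 1.43 FPKM in W72_ZM22. It was at 2.04, 0.550 and 0.345 FPKM in C72_BN207, at 0.716, 1.68 and 0.870 FPKM in W72_BN207, at 0.399, 0.738 and 0 FPKM in C72_BN607 and at 1.08, 0.341 and 0.744 FPKM in W72_BN607. Its control and waterlogged groups overlapped in every variety, and its level in C72_ZM22 replicate 1, the library richest in gluten, was in the middle of this range. Upon waterlogging its log2 fold change was 0.16 for ZM22, 0.08 for BN207 and 1.29 for BN607, each at adjusted p = 1 by edgeR's quasi-likelihood test.

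The wider list of prolamin gene regulators (19 loci, 12 tested) summed to 107 to 412 FPKM per library, and 0 of its members passed edgeR's quasi-likelihood test or DESeq2 in any contrast. Of all tested loci, up to 10.6% passed edgeR's test and up to 20.1% passed DESeq2, both for BN607 minus ZM22. At unadjusted p under 0.05 there was 1 of the 12, for waterlogging averaged over the varieties, against 2.72% of all tested loci. GAMYB (MSTRG.12308), a MYB factor that activates alpha-amylase genes in the aleurone and, in barley, also storage protein genes in the endosperm, was its most abundant member at 31.3 to 248 FPKM.

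Proteins that fold gluten in the endoplasmic reticulum (protein disulfide isomerases and luminal-binding proteins, 29 loci, 17 tested) summed to 203 to 935 FPKM. None passed edgeR's quasi-likelihood test for waterlogging in ZM22, BN207 or BN607, where 0.00592%, 0% and 0% of all tested loci did. None passed DESeq2 either, against 0.286%, 0.544% and 0.0675%. At unadjusted p under 0.05 there were 0, 0 and 1 of the 17, against 1.09%, 1.89% and 2.12%. By edgeR's test 2 were higher in BN207 than in ZM22, 1 was higher and 4 were lower in BN607 than in ZM22, and 4 were lower in BN607 than in BN207. As shares of the 17 these were 11.8%, 29.4% and 23.5%, against 4.63%, 10.6% and 1.52% of all tested loci. The luminal-binding protein MSTRG.27381 of 6A was higher in BN207 than in ZM22 by 1.81 (SE 0.33, adjusted p = 0.00432) on the log2 scale. The fit includes the library labelled W72_BN207 replicate 1, at 26.8 FPKM, against 89.3 and 106 FPKM in W72_BN207 replicates 2 and 3. Protein disulfide isomerase 3 (MSTRG.20345), an enzyme that forms and rearranges disulfide bonds, was lower in BN607 than in ZM22 (log2 fold change −1.99, SE 0.52, adjusted p = 0.0256). Both adjusted p-values are from edgeR's quasi-likelihood test.

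Loci described as enzymes of the classes that break down gluten (cysteine proteinases, triticains, cathepsin B, serine carboxypeptidases and vacuolar-processing enzymes, 156 loci, 85 tested) summed to 3858 to 18611 FPKM, far above the gluten loci in every library. Whether each of them acts on gluten was not tested. Cathepsin B (MSTRG.20208) alone was at 516 to 4411 FPKM. None passed edgeR's quasi-likelihood test for waterlogging in ZM22, BN207 or BN607, where 0.00592%, 0% and 0% of all tested loci did. At unadjusted p under 0.05 there were 1, 2 and 1 of the 85, against 1.09%, 1.89% and 2.12%. DESeq2 called 1, 1 and 0, against 0.286%, 0.544% and 0.0675%. Between varieties, by edgeR's test, 3 were higher and 1 lower in BN207 than in ZM22. In BN607, 4 were higher and 5 lower than in ZM22, and 1 was lower than in BN207. These shares of the 85 (4.71%, 10.6% and 1.18%) were near those over all tested loci (4.63%, 10.6% and 1.52%). Triticain beta 2 (MSTRG.8945), a papain-like cysteine proteinase, was lower in BN607 than in ZM22 (log2 fold change −3.54, SE 0.82, adjusted p = 0.0141 by the same test).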

How the data were processed

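Poly(A) RNA of 18 seed libraries was sequenced as paired ends. The authors aligned reads to wheat IWGSC RefSeq v1.0, and HISAT and StringTie, with no version, are named in the submitters' notes. The authors deposited FPKM and expected counts, estimated by StringTie and given as whole numbers, for 94141 loci. Strand use is not stated. Counts were tested with edgeR 4.0.16 (R 4.3.3; TMM, quasi-likelihood, 1 mean for each of 6 groups, at least 1 FPKM in at least 3 libraries, adjusted p under 0.05); limma 3.58.1 and DESeq2 1.42.0 were alternatives, with other scaling, filters, the replicate block and left-out libraries. The test was checked on simulated data. The gluten loci, the marker lists and the named loci (the 15 highest by mean FPKM, the highest of each class, up to 4 called each way or otherwise the 2 smallest p-values per contrast) were chosen with earlier results of these data known. Other loci named, in the 1B cluster, on 6A, among avenin-like proteins and among partner genes, were chosen after their values were seen. Same-numbered libraries were not treated as pairs in the main fit. Their deviations correlated at −0.51 to 0.58, above 0.1 in 3 of 9 cases, which cannot show whether they shared a batch. Coordinates are those of the deposited table, and no sequences were used here. Figures used matplotlib 3.10.9, tables Python 3.11.15 and pandas 2.3.3.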

Additional observations from a re-analysis of the deposited data

Results flagged for a closer look

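A pair of omega-gliadins moved opposite ways in 2 varieties, in every library, and the difference was not tested. TraesCS1A02G005315 (1A) was at 0.0467, 0.0346 and 0.0247 FPKM in C72_ZM22 and 0 in W72_ZM22, a log2 ratio of group means with 1 FPKM added of −0.0501, and at 0 in C72_BN207 against 0.0479, 0.154 and 0.0159 FPKM in W72_BN207. TraesCSU02G272393 (unplaced) was at 1.66, 0.839 and 0.0674 FPKM in C72_ZM22 and 0 in W72_ZM22, a log2 ratio of −0.892, and at 0, 0 and 0.0701 FPKM in C72_BN607 against 0.176, 0.156 and 0.531 FPKM in W72_BN607. Neither locus passed the level filter. The first W72_BN207 value is that of the library that goes against its label. In BN207 and in BN607 the locus was the 1 of 94 gluten loci above 0 that lay above control without overlap. Of all loci above 0, 1.4% and 1.31% did so in these varieties, so the rises were near the background.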

How the results depend on the processing

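No result turned its direction for a called locus. With DESeq2 the number of gluten loci called was 9 for waterlogging in ZM22, 10 averaged over varieties and 2 for BN207 minus ZM22. It was 3 for BN607 minus ZM22, where MSTRG.3390, lower in BN607, was added. For BN607 minus BN207 it was 1, and for the response in BN607 minus that in ZM22 it was 1. The shares over all tested loci are given above. For BN207 minus ZM22 and BN607 minus ZM22 edgeR's test called 6 and 7 of 67 with at least 10 counts in 3 libraries. These were 8.96% and 10.4%, against 3.52% and 8.11% of tested loci. It called 6 and 7 with no filter, where no share over all loci is given and the counts are not read further. With control libraries only it called 0 and 0. Limma on log2(FPKM + 1) called 0 for BN607 minus ZM22. With the replicate block the number called was 2 for BN207 minus ZM22, and 0 for waterlogging in each variety with medians of −5.59, −3.47 and −0.50. No other number of calls moved, and no source used here ties same-numbered libraries by more than the number. Leaving out 1 library gave 0 to 2 for BN207 minus ZM22 and 0 to 2 for BN607 minus ZM22. MSTRG.1665 in BN607 was lost without C72_ZM22 replicate 2, any W72_ZM22 library, C72_BN607 replicates 1 or 2, or W72_BN607 replicate 3 (adjusted p 0.0559 to 0.0781, edgeR's quasi-likelihood test). The cause was not tested. With limma on log2(FPKM + 1) the median was −1.30 in ZM22, −1.10 in BN207 and −0.80 averaged over varieties, on a scale that shrinks changes of low loci, and with control libraries only it was −3.67 for BN607 minus BN207. Counts and bounds without single libraries under the filter of 10 counts were chosen after seeing the data. Most gluten loci in most libraries rest on few counts (120 to 1962 summed gluten counts in all but 3 libraries), and a common biological coefficient of variation of 0.676 with 3 libraries per group limits what the test can show.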
